A study of Danio rerio with 56 samples.

Results

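Embryos sired by males that had eaten benzo[a]pyrene (BaP) were compared with embryos of 2 control parents. The comparison used 8 RNA libraries of the 56 samples in the series, which were the 4 titled Cf.Bm.10hpf (control mother, BaP-fed father) and the 4 titled Control 10hpf. Membership came from the titles alone. In the BaP-fed father group, males of the 5D zebrafish strain had eaten BaP-treated flakes for 21 days, starting at 120 days after fertilisation, at a dose of 25 µg/g fish or 1250 µg/g food, and their mates had been given acetone-treated flakes. In the control group both parents had been given acetone-treated flakes, also for 21 days from 120 days after fertilisation. Parents of both groups also ate untreated Gemma food. Each diet had 5 tanks and 20 fish, the embryos were collected at 10 hours post fertilisation (hpf) after feeding had ended, and ribosomal RNA had been removed before sequencing. The labels do not say which tank, spawning or number of embryos a library came from. Each p-value therefore measures only the spread between libraries, which in the main edgeR fit was estimated over all 16 embryo libraries. The other 8 were 4 with only the mother BaP-fed (mother-only) and 4 with both parents BaP-fed (both-parents). Levels in eggs came from 4 control and 4 BaP egg libraries. For these BaP groups the labels give the same dose, age at feeding and days of feeding.

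BaP is a polycyclic aromatic hydrocarbon formed in combustion. It binds the aryl hydrocarbon receptor, which switches on cytochrome P450 enzymes, and their products can form adducts with DNA. The zebrafish embryo begins on RNA stored in the egg by the mother, and while its own genome is switched on and gastrulation proceeds, much of that stored RNA is cleared. A father adds little to this store, and his diet was measured here through the RNA of the embryo.

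The files list Ensembl transcript identifiers that none of the tables used here pairs with a gene name, so at most 2 transcripts are named in each direction and no gene function or cell type marker could be read. The rows were described by length, by level in eggs and by level in embryos. Totals ran from 26010776 to 35914547 estimated counts in the BaP-fed father libraries and from 30751864 to 38130629 in the control libraries. Across 18554 transcripts with a mean of at least 2 CPM in embryos (counts scaled to the size of the library), the median correlation of log2 CPM was 0.936 between the BaP-fed father libraries and 0.938 between the control libraries. Between the groups the median was 0.935, so a library was about as close to one of the other group as to one of its own. Transcripts are not independent replicates, and these correlations are descriptions.

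Embryos of BaP-fed fathers had a smaller share of counts on transcripts of 5000 bases and over, and on transcripts at 0.1 to under 20 CPM in eggs, than control embryos did. Of 30894 transcripts tested, 128 were lower (0.414%) and 3 were higher (0.00971%) with a BaP-fed father, which together made 0.424% (edgeR quasi-likelihood test over the 16 embryo libraries, Benjamini-Hochberg adjusted p under 0.05). The direction of the calls was not shared by the transcripts as a whole. The median log2 fold change was 0.01 over all tested and 0.03 over those of at least 2 CPM, and 51.3% of all tested were above 0. At an unadjusted p under 0.05, 2028 were lower and 1400 were higher.

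The 128 lower transcripts spanned fitted log2 fold changes from -8.80 to -0.31, and 16 of them were more than 2-fold lower. Their mean level over the 8 libraries ran from 0.58 to 413 CPM, with 10 under 2 CPM. Their adjusted p-values ran from 0.00121 to 0.0481, with 2 of them under 0.01, 59 under 0.02 and 77 under 0.03 (edgeR). By their choice as calls, all 128 had every BaP-fed father library below every control library, which held for 4.3% of the transcripts tested, with another 3.24% entirely above, or 7.54% in all. Summed over the 128, the level was 2645, 2793, 3155 and 2804 CPM in BaP-fed father replicates 1 to 4, against 4164, 4710, 4413 and 4427 CPM in control replicates 1 to 4. Replicate 3 stood nearest to the controls in the BaP-fed father group, and it held the highest value of its group for 83 of the 128. Replicate 1 stood nearest to the BaP-fed father group among the controls, and it held the lowest control value for 80.

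**Figure D1:**
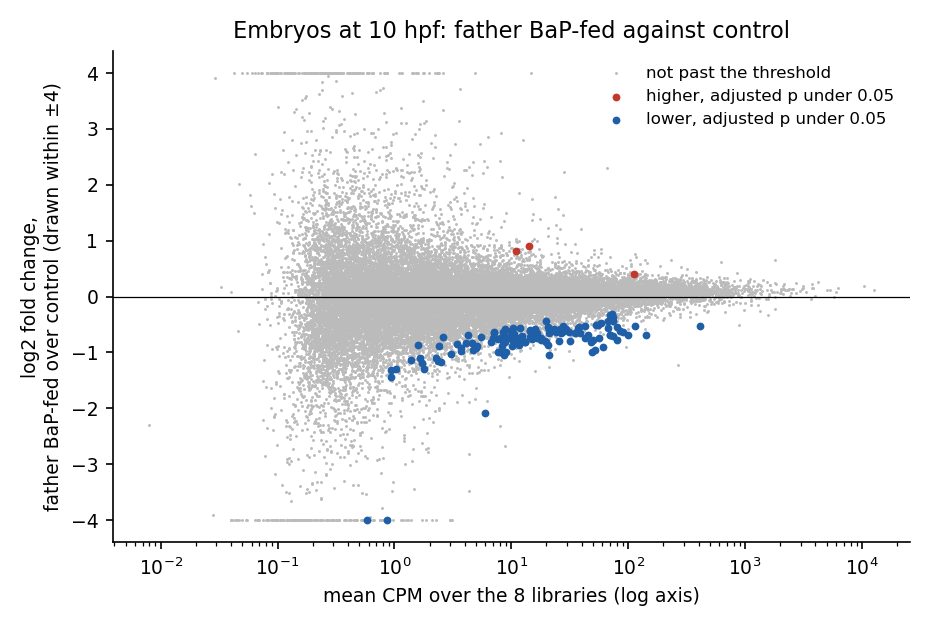
Each point is a transcript, with its mean CPM over the 8 libraries on a log axis and its log2 fold change (father BaP-fed over control, drawn within ±4) on the vertical axis. Blue points are the 128 lower calls, from 0.58 to 413 CPM, and red points are the 3 higher calls. Many grey points that were not called lie as far from 0 as the blue ones.

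The number of calls changed widely with single libraries left out. It was 2, 31, 189 and 96 without BaP-fed father replicates 1 to 4, and 85, 2, 69 and 4 without control replicates 1 to 4. In those fits 2832 to 3783 transcripts had an unadjusted edgeR p under 0.05, against 3428 with all libraries. Of the 8 libraries outside the comparison, whose spread enters the same fit, leaving out both-parents replicate 2 gave 344 calls and leaving out any of the other 7 gave 89 to 102. A fit of the 8 libraries alone called 57 of 27949 (0.204%), of which 37 were lower (0.132%), 20 were higher (0.0716%) and 32 were among the 131. DESeq2 called 801 of 33206 (2.41%), with 607 lower (1.83%) and 194 higher (0.584%), including all 131.

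Lower calls were most frequent among the longest transcripts. The median fold change was lower in each longer class among transcripts of at least 2 CPM, but not over all tested. Over all tested, the median log2 fold change was 0.0025 under 1000 bases and 0.052 at 1000 to under 2000 bases. It was 0.015 at 2000 to under 5000 bases and -0.11 at 5000 bases and over. Among transcripts of at least 2 CPM, 57 of 2529 of 5000 bases and over were lower calls (2.25%), against 50 of 7742 of 2000 to under 5000 bases (0.646%), 6 of 5475 of 1000 to under 2000 bases (0.110%) and 7 of 2808 of under 1000 bases (0.249%). The median log2 fold change was -0.10 in the longest class and 0.03, 0.06 and 0.07 in the shorter classes in that order. In the longest class each BaP-fed father library had a median between -0.13 and -0.08 relative to the control mean, and the control libraries lay between -0.03 and 0.03. The groups did not overlap there. None of the 3 higher calls reached 5000 bases, a length that 11.8% of all transcripts tested reached. Removing a smooth trend on length from each library left 82 calls (80 lower, 2 higher), 78 of them among the 131.

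The shift also followed the level in eggs, which was taken from 8 egg libraries, 4 of them BaP eggs, that the comparison does not use. Among transcripts of at least 2 CPM in embryos, those at 20 CPM and over in eggs had a median log2 fold change of 0.08, those at 2 to under 20 CPM one of -0.02, those at 0.1 to under 2 CPM one of -0.11 and those under 0.1 CPM one of -0.05. In the most egg-abundant class the BaP-fed father libraries lay between 0.04 and 0.12 and the control libraries between -0.02 and 0.02. In the class at 0.1 to under 2 CPM they lay between -0.19 and -0.05, against 0.00 to 0.03 in the control libraries. In the scarcest class the BaP-fed father libraries ran from -0.21 to 0.03 and overlapped the controls. By level in embryos, over all tested, the median log2 fold change was -0.082 under 2 CPM and -0.020 at 2 to under 10 CPM. It was 0.031 at 10 to under 50 CPM and 0.073 at 50 CPM and over. Whether the shift followed the level in eggs apart from the level in embryos was not tested. Most lower calls were not absent from eggs: 80 of the 6306 transcripts at 2 to under 20 CPM in eggs were lower (1.27%), against 24 of 3012 at 0.1 to under 2 CPM (0.797%), 14 of 8492 at 20 CPM and over (0.165%) and 2 of 744 under 0.1 CPM (0.269%).

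**Figure D2:**
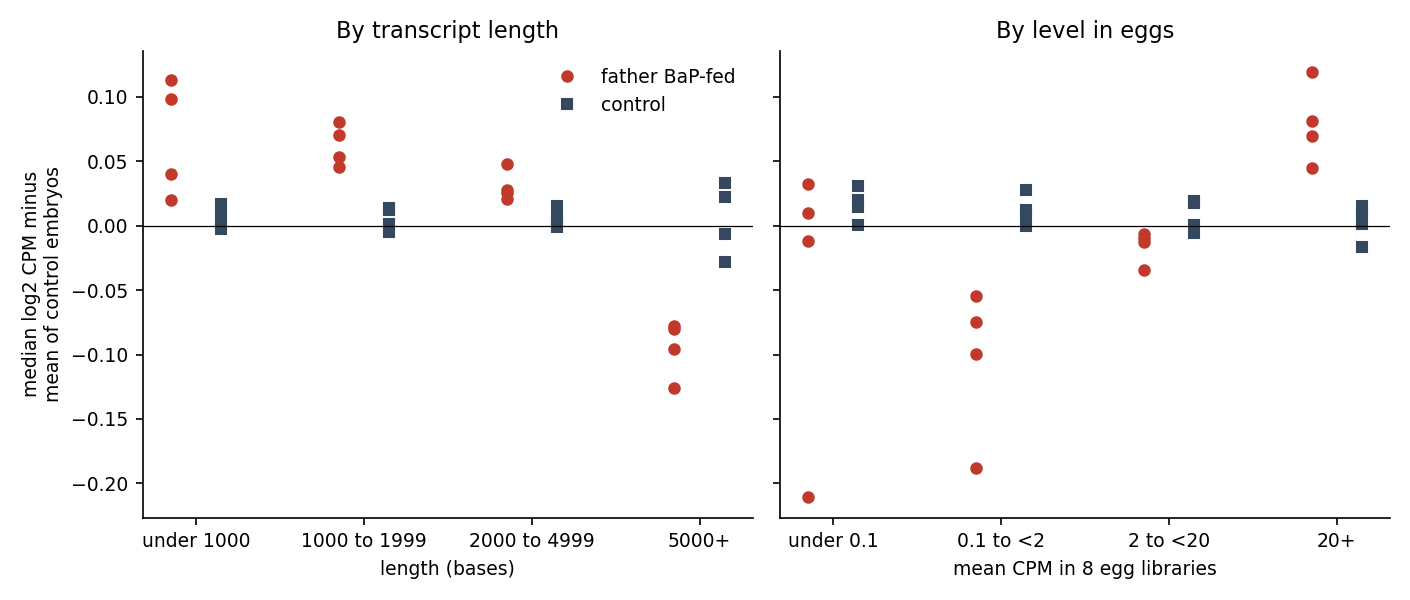
Each point is 1 library's median log2 CPM relative to the mean of the 4 control embryo libraries, over transcripts of at least 2 CPM in embryos in a class of length (left) or of level in eggs (right). BaP-fed father libraries (red) lie below the controls (grey squares) for transcripts of 5000 bases and over, between -0.13 and -0.08, and above them for transcripts of 20 CPM and over in eggs, between 0.04 and 0.12.

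The shift by length differed with the level in eggs, and also with the level in embryos. Both differences are given here as values with no test. Among transcripts of 5000 bases and over and at least 2 CPM in embryos, the median log2 fold change was -0.38 for the 41 under 0.1 CPM in eggs, -0.36 for the 365 at 0.1 to under 2 CPM, -0.22 for the 838 at 2 to under 20 CPM and -0.02 for the 1285 at 20 CPM and over. For the 1285, the BaP-fed father libraries, between -0.04 and 0.04, overlapped the control libraries, between -0.05 and 0.05. For the 365, the BaP-fed father libraries had medians between -0.52 and -0.25 relative to the control mean, against -0.04 to 0.04 in the control libraries. The median was 0.16 for the 717 under 1000 bases and at 20 CPM and over in eggs. Of the 16 combinations of length and egg level, calls were most frequent in the longest class at 2 to under 20 CPM in eggs, where 38 of 838 were lower (4.53%). By level in embryos, the median of the longest class was -0.22 at 2 to under 10 CPM, -0.11 at 10 to under 50 CPM and -0.03 at 50 CPM and over. Whether the shift by length differed with the level in eggs apart from the level in embryos was not tested.

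Shares of whole libraries moved in the same direction. Transcripts of 5000 bases and over took 14.28%, 14.78%, 14.97% and 14.55% of the counts in BaP-fed father replicates 1 to 4, against 15.9%, 16.4%, 16.3% and 15.6% in control replicates 1 to 4. The groups did not overlap (difference -1.40 percentage points, two-sided exact permutation p = 0.0286, the smallest that 4 against 4 can give). The shares of transcripts under 1000 bases (12.8% ± 0.234 against 12.1% ± 0.246) and of 1000 to under 2000 bases (28.6% ± 0.221 against 27.8% ± 0.274; SD, n = 4) were higher with a BaP-fed father (exact permutation p = 0.0286 for each), and that of 2000 to under 5000 bases was 43.9% ± 0.200 against 44.0% ± 0.247 (exact permutation p = 0.80). Of the deposited TPM values, which divide by length, the longest class took 2.89% ± 0.103 in embryos of BaP-fed fathers and 3.21% ± 0.118 in controls (exact permutation p = 0.0286). In TPM the classes under 1000 bases and of 1000 to under 2000 bases differed by 0.604 and 0.127 percentage points, and their groups overlapped (exact permutation p = 0.514 and 0.80).

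Transcripts at 20 CPM and over in eggs took 79.3%, 78.7%, 78.7% and 80.5% of the counts in BaP-fed father replicates 1 to 4, against 78.2%, 78.1%, 78.2% and 77.9% in control replicates 1 to 4. Every BaP-fed father library was above every control, and replicate 4 was the highest (difference 1.18 percentage points, two-sided exact permutation p = 0.0286). The share ran from 76.7% to 79.2% in both-parents libraries and from 77.8% to 78.5% in mother-only libraries. Both-parents replicate 2, at 79.2%, lay within the BaP-fed father range, and mother-only replicate 4, at 78.5%, lay above every control. The classes at 2 to under 20 CPM (12.7% ± 0.428 against 13.4% ± 0.133) and at 0.1 to under 2 CPM (6.13% ± 0.306 against 6.53% ± 0.0599) were lower with a BaP-fed father (exact permutation p = 0.0286 for each; SD, n = 4). The class under 0.1 CPM was 1.88% ± 0.117 against 1.96% ± 0.0174 (exact permutation p = 0.171). In shares of TPM the 3 differences by egg level that passed kept their sign, but the groups overlapped (exact permutation p from 0.0571 to 0.20). Across the 18554 transcripts, log2 CPM correlated with the mean egg level at 0.533 to 0.560 in BaP-fed father libraries, at 0.499 to 0.593 in both-parents libraries, at 0.507 to 0.533 in mother-only libraries and at 0.501 to 0.514 in control libraries. The BaP-fed father libraries were thus each closer to eggs than any control, as were several libraries of the other crosses, and both-parents replicate 2 was the library at 0.593. Whether the embryos of each library were at the same stage was not tested.

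Fewer transcripts were detected with a BaP-fed father at equal depth. Thinned to 26010705 counts, the expected number with a count was 36039, 36131, 36132 and 35754 in BaP-fed father replicates 1 to 4, against 36812, 36753, 36594 and 36724 in control replicates 1 to 4. Each BaP-fed father library was below each control (difference -707, two-sided exact permutation p = 0.0286). No equal-depth value is given here for the other crosses. Without thinning, the number was 36133 to 36659 with only the father BaP-fed and 37054 to 37560 in controls. It was 36464 to 37860 in mother-only and 37583 to 37747 in both-parents libraries. Mother-only replicates 2 and 4, at 36659 and 36464, were thus also below every control. The 100 most abundant transcripts of a library took 21.8% ± 0.440 of its counts with a BaP-fed father and 21.2% ± 0.395 in controls (SD, n = 4; exact permutation p = 0.114). Adjusted over the 11 library-level values computed, which were chosen with earlier results of these data known and are partly shares of the same total, the 7 at the smallest p stood at an exact permutation p of 0.0449.

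**Figure D3:**
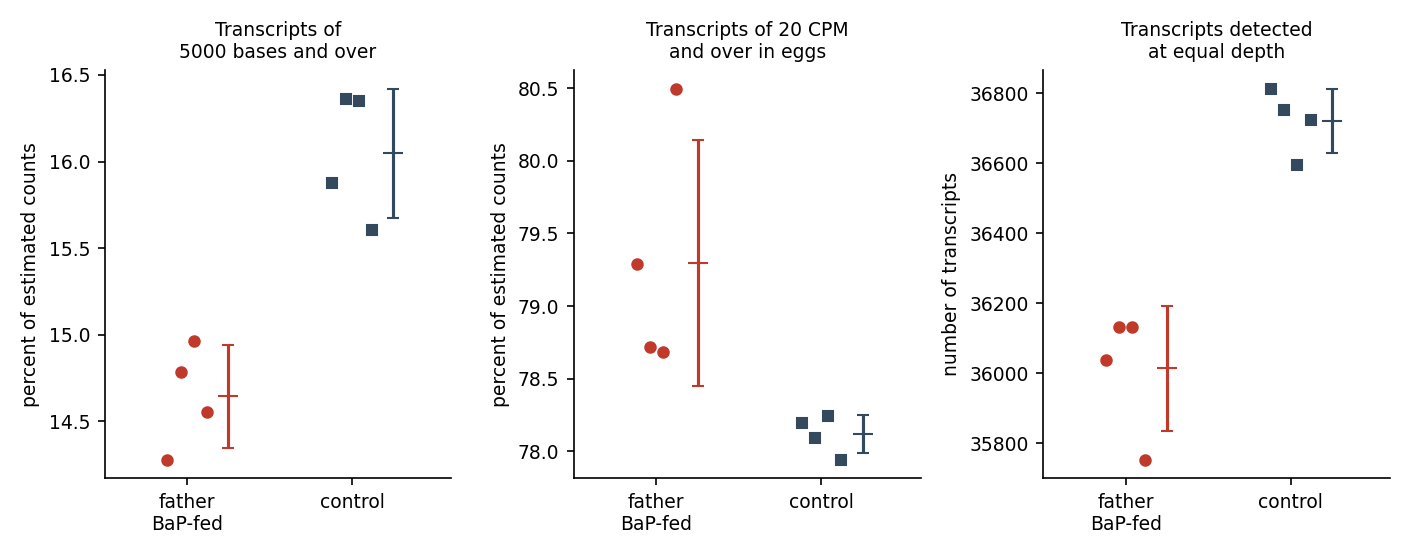
Each point is 1 library, with the mean and SD of the 4 beside it, for embryos of BaP-fed fathers (red) and controls (grey squares). The axes do not start at 0. The share of counts on transcripts of 5000 bases and over is 14.28% to 14.97% against 15.6% to 16.4%, the share on transcripts of 20 CPM and over in eggs is 78.7% to 80.5% against 77.9% to 78.2%, and the number detected at equal depth is 35754 to 36132 against 36594 to 36812.

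Length and detection can also depend on the RNA and the library, so the values that the files give on this are set beside them. The length minus the effective length, which depends on the fragment length and on how Salmon modelled each library, had medians of 561, 608, 578 and 708 bases over transcripts of 3000 bases and over in BaP-fed father replicates 1 to 4, against 645, 637, 614 and 613 bases in control replicates 1 to 4 (two-sided exact permutation p = 0.743). The groups overlapped, and BaP-fed father replicate 4 was the highest and replicate 1 the lowest of the 8. Without replicate 4, the other 3 were all below the controls, and the difference moved to -44.9 bases, against -13.6 with it (exact permutation p = 0.0571, the smallest that 3 against 4 can give). That was the largest move of any library left out. Without any other single library, the difference was -18.3 to 3.82 bases (exact permutation p of 0.686 or more). Over rows of that length with no read in the library, the median was 287, 282, 282 and 273 bases with a BaP-fed father, against 283, 283, 287 and 293 bases in controls (exact permutation p = 0.171). No measure of RNA integrity is used here, and its part in the shift by length was not tested.

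Isoforms of a gene share reads, which Salmon divides between rows by estimate. Of the 128 lower transcripts, 126 had a count that was not whole in at least 1 embryo library (98.4%), against 25395 of the 30894 tested (82.2%). Among the 5499 transcripts with whole counts in all 16 embryo libraries, 2 were lower and 1 was higher, and a fit of these alone called 1. Changes in how reads were divided between isoforms and changes in RNA level cannot be told apart for these rows, and a whole count does not show that no shared read entered it.

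Of the named transcripts, ENSDART00000145068.3 was the lower call with the highest level, and at 16375 bases also the longest of the 128. It had 328, 358, 359 and 314 CPM in BaP-fed father replicates 1 to 4, against 506, 536, 463 and 442 CPM in control replicates 1 to 4. All 4 libraries with a BaP-fed father were below all controls, and the log2 fold change was -0.52 with an SE of 0.09 (edgeR adjusted p = 0.0188). Its level was 465 ± 48.2 CPM where both parents and 477 ± 35.5 CPM where the mother alone had eaten BaP (SD, n = 4), and 46.6 CPM on average in eggs. The call ended without control replicate 2 or 4 or BaP-fed father replicate 1 (edgeR adjusted p from 0.0529 to 0.0814), in the fit of the 8 libraries alone (edgeR adjusted p = 0.0519) and with the length trend removed, where the log2 fold change was -0.25 (edgeR adjusted p = 0.239).

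ENSDART00000187324.1 (4813 bases) had the smallest p of all transcripts tested. It had no count in any BaP-fed father library, against 65.2, 54.1, 87.0 and 25.9 estimated counts in control replicates 1 to 4, or 1.72 ± 0.729 CPM (SD, n = 4). Set against a floor of 3 counts over the BaP-fed father group, it was at least 73.7-fold lower (edgeR adjusted p = 0.00121). It had a count in every library of the other crosses, with 2.18 ± 0.695 CPM for both parents and 2.16 ± 0.710 CPM for only the mother BaP-fed. In eggs it had 0.471 CPM on average, with libraries from 0 to 0.942 CPM. Floors cover counting error only and not how reads were divided between isoforms, and the counts of this transcript were not whole.

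The 2 named higher transcripts were shorter. ENSDART00000017230.8 (917 bases) had 132, 128, 127 and 128 CPM in BaP-fed father replicates 1 to 4, against 93.3, 94.5, 110 and 89.8 CPM in control replicates 1 to 4. Its groups did not overlap, and the log2 fold change was 0.41 ± 0.07 (SE, edgeR adjusted p = 0.0199). Its counts were whole in all 16 embryo libraries, and it was the highest of the 3 higher calls in level. ENSDART00000039466.5 (1708 bases) had 16.5, 14.5, 12.5 and 12.1 CPM with a BaP-fed father, against 7.02, 8.36, 8.56 and 7.64 CPM in controls, and the log2 fold change was 0.82 with an SE of 0.16 (edgeR adjusted p = 0.0408). Its level ran from 10.4 to 17.6 CPM in both-parents libraries and from 9.27 to 12.2 CPM in mother-only libraries. Every library of those crosses was thus also above every control, so the higher level was not particular to embryos with only the father BaP-fed. The first call ended without control replicate 1, 2 or 4 or BaP-fed father replicate 1 or 2 (edgeR adjusted p from 0.0639 to 0.0937). The second ended when any of 11 of the 16 embryo libraries was left out (edgeR adjusted p from 0.0511 to 0.137), and both ended in the fit of the 8 libraries alone (edgeR adjusted p = 0.0925 and 0.0586). Taking out the trend on length also ended both (edgeR adjusted p = 0.0634 and 0.0630). The first ended in a fit of whole counts alone (edgeR adjusted p = 0.149) and the second without a filter (edgeR adjusted p = 0.0567).

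**Figure D4:**
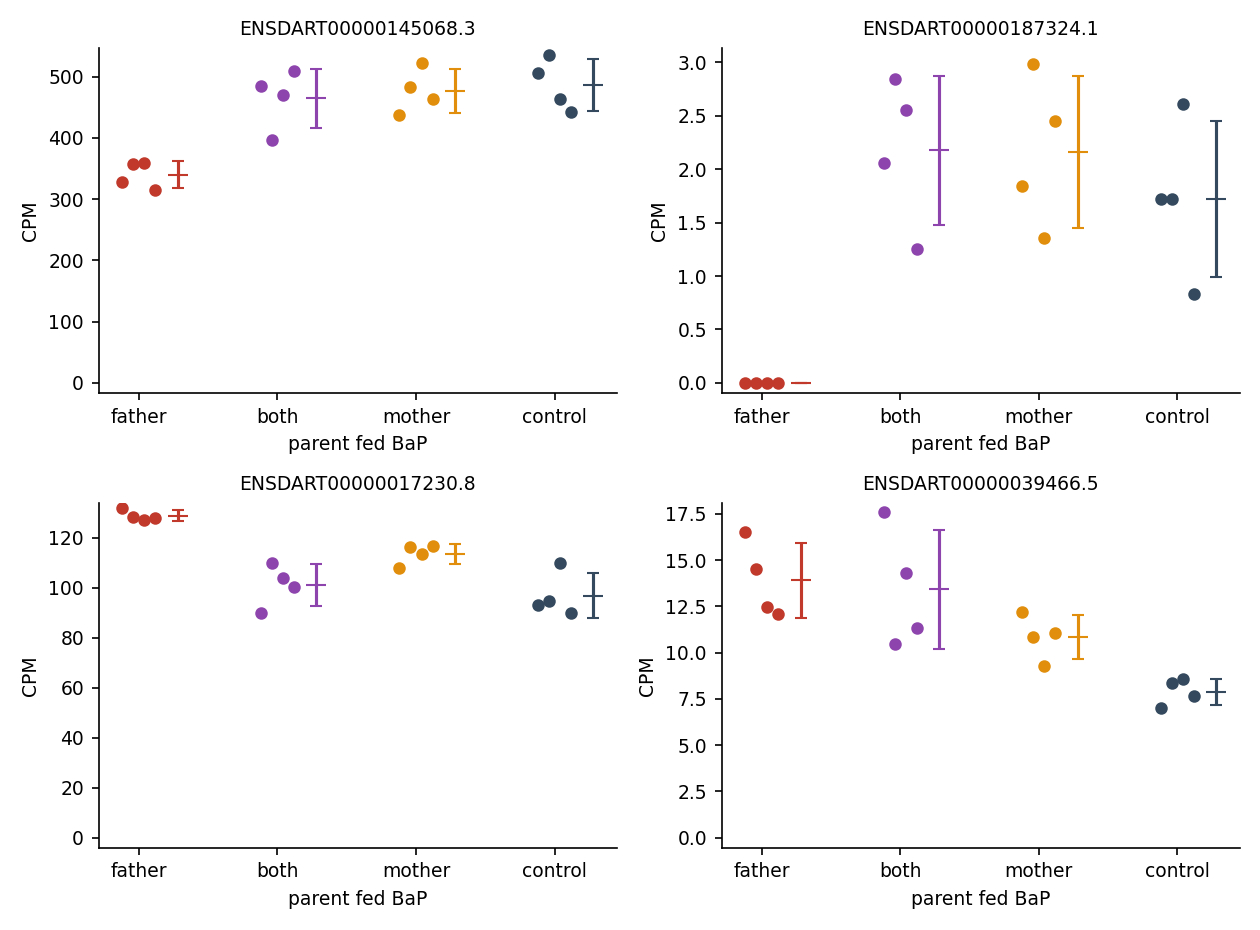
Each point is the CPM of 1 library for the 4 named transcripts in embryos with the father, both parents, the mother or neither parent (control) BaP-fed, with the mean and SD of the 4 libraries beside it. ENSDART00000145068.3 is at 314 to 359 CPM with only the father BaP-fed and ENSDART00000187324.1 at 0, and both are higher in the other crosses.

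Some transcripts were listed at 0 in a whole group. Of the 57192 rows, 8 had no count in all 4 BaP-fed father libraries and at least 10 in each control library. The 8 included 2 lower calls (edgeR). The reverse held for 3 rows, none of them a call (edgeR). With at least 3 counts asked for in place of 10, the 2 patterns held for 21 and 13 rows, and with at least 30 for 1 and 1. Of the 8, 6 were also at 0 in at least 1 of the 8 libraries of the mother-only and both-parents crosses, and 2 had a count in all 8. Between the both-parents and mother-only crosses the same 2 patterns, with at least 10 counts, held for 3 and 4 rows. No test was made on these counts of rows.

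The father's diet could be compared a second time, in crosses with a BaP-fed mother. No library is common to both differences in means, but both were tested in the same fit, with the same estimate of spread for each transcript. With both parents BaP-fed against only the mother BaP-fed, edgeR called 0 of 30894 transcripts (0%), with 2042 at an unadjusted p under 0.05. DESeq2 called 115, of which 54 were higher and 61 were lower. The 128 transcripts that were lower with control mothers mostly had positive fold changes here. Their median log2 fold change was 0.34, 125 of the 128 were above 0 and 91 had an unadjusted edgeR p under 0.05. Over all 30894 tested the median was 0.02, 16567 were above 0 and 2042 had such a p. Calling favours transcripts with a small estimated spread, and that estimate also enters the second comparison. The 91 are therefore not independent support. These 128 vary together across libraries and are not independent. Summed over them, the level was 5123, 4041, 5156 and 5125 CPM in both-parents replicates 1 to 4, against 4122, 3781, 4300 and 3816 CPM in mother-only replicates 1 to 4. Both-parents replicate 2 was below mother-only replicates 1 and 3, and the other 3 were above all 4.

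The difference between both effects of the father's diet was tested as an interaction. It passed for 278 of the 30894 transcripts (0.9%), with 254 positive (0.822%) and 24 negative (0.0777%) (edgeR adjusted p under 0.05), and for 119 of the 128, which were chosen on libraries that this test also uses. The interaction count was 90 to 422 with single libraries left out, the highest without both-parents replicate 2. For transcripts of 5000 bases and over and at least 2 CPM the median log2 fold change was 0.05 with BaP-fed mothers and -0.10 with control mothers. The share of counts on transcripts of 5000 bases and over was 16.1%, 16.2%, 17.1% and 16.2% in both-parents replicates 1 to 4, and 16.03%, 15.83%, 16.33% and 15.37% in mother-only replicates 1 to 4. All 8 were above the highest BaP-fed father library, which stood at 14.97%. Across the 18554 transcripts the fold changes of the father's diet with BaP-fed and with control mothers correlated at Pearson's r = 0.0597 (Spearman's rho = -0.122), given as a description.

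**Figure D5:**
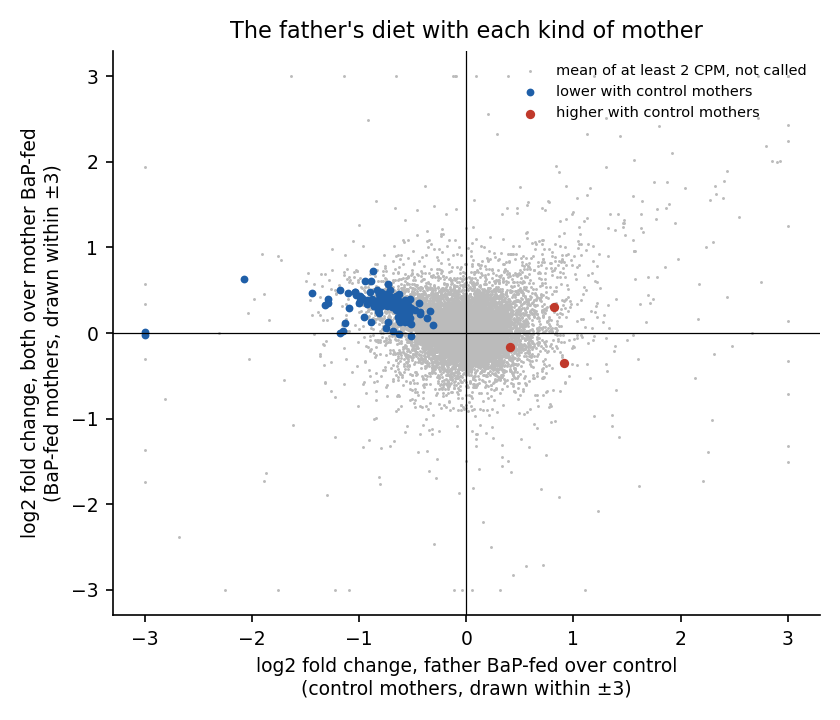
Each point is a transcript, with its log2 fold change for a BaP-fed father with control mothers on the horizontal axis and with BaP-fed mothers on the vertical axis, both drawn within ±3. Grey points have a mean of at least 2 CPM and were not called, and the 128 lower calls (blue) lie mostly above 0 on the vertical axis, 125 of them.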

How the data were processed

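The submitters' processing notes name FastQC, Salmon, DESeq2 and the build GRCz11; tool versions were not stated in the sources used here. Each of the 24 deposited tables gives, per the file headers, length, effective length, TPM and an estimated count for the same 57192 transcript rows, none of which matched the name tables in use. The library titles BaP 10hpf were taken to mean 2 BaP-fed parents, since each other cross has its own title.

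The deposited estimated counts were rounded, and edgeR 4.0.16 under R 4.3.3 with limma 3.58.1 was run on them (TMM, filterByExpr, glmQLFit with robust=TRUE) in 1 fit of the 16 embryo libraries (26010776 to 38130629 counts) with a mean per cross. Standard errors are the fold change divided by the square root of F. CPM values use TMM-scaled totals, and log2 CPM a prior count of 2. DESeq2 1.42.0 was an alternative. In data simulated for this comparison (29755 transcripts, all changed ones at 2 CPM or more), 63 of 100 true 2-fold changes and 91 of 100 true 4-fold changes were recovered, and 3.14% of calls were false. The simulation drew transcripts independently, with no shift by length or egg level and no true change under 2-fold. Its rates therefore need not hold for the calls reported above. Named transcripts were the call of highest mean CPM and the call of smallest p in each direction, or the next smallest p where these were the same. A count was whole within 1e-06. Shares and other library-level values were compared by two-sided exact permutation tests.

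The comparison, the lists and the tests were chosen with earlier results of these data known. Gene lists prepared for this stage could not be applied without gene names. Pairs of libraries of a group differed by more than sampling noise (chi-square per degree of freedom 16.0 to 40.6). The 32 bisulfite samples were not analysed here.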

Additional observations from a re-analysis of the deposited data

Results flagged for a closer look

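The effect of the father's diet differed between BaP-fed and control mothers for 278 transcripts in the edgeR interaction test. Among the named ones, ENSDART00000187324.1 had an interaction of 8.81 on the log2 scale, a fitted value that depends on the prior count because 1 group was at 0 (edgeR adjusted p = 0.0052). ENSDART00000017230.8 had an interaction of -0.58 (edgeR adjusted p = 0.0157), with 101 ± 8.37 CPM for both parents, 113 ± 4.10 CPM for only the mother, 129 ± 2.11 CPM for only the father and 96.9 ± 8.93 CPM for neither parent BaP-fed (SD, n = 4). The interactions of ENSDART00000039466.5 (-0.51, edgeR adjusted p = 0.382) and ENSDART00000145068.3 (0.48, edgeR adjusted p = 0.0854) did not pass. Summed over the 128 lower calls, both-parents replicate 2 stood at 4041 CPM, far below the other 3 libraries of its cross. It was the only 1 of 46 groups of 4 values with such a gap, and chance flags about 1 in 20.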

How the results depend on the processing

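Of the 131 calls, RLE and upper-quartile factors changed the count by less than 1.5 times. It was 77 with no filter, 274 with a mean of at least 2 CPM, 82 with the length trend removed, 57 over the 8 libraries alone, 801 in DESeq2 and 1 over transcripts with whole counts only. Leaving out a library gave 2 to 344. With a replicate block it was 69, and the calls of ENSDART00000145068.3 and ENSDART00000039466.5 ended (edgeR adjusted p = 0.0522 and 0.0646), and with the block over the 8 libraries alone it was 0 in edgeR (2371 at an unadjusted p under 0.05). Same-numbered libraries of both groups had deviations correlated at -0.0559 to 0.0061, and differently numbered ones at -0.0947 to 0.102. These correlations cannot show whether same-numbered libraries shared a tank, spawning or batch, which the labels do not give. The father's effect with BaP-fed mothers gave 0 calls, 115 in DESeq2 and 0 to 1 with a library left out. The 278 interaction calls became 1074 in DESeq2, 185 with the length trend removed, 151 without a filter, 144 with a replicate block, 2 over whole counts and 90 to 422 with a library left out. The causes of these changes were not tested.

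For transcripts of 5000 bases and over the median log2 fold change, -0.11 over all tested, was 0.0054 with the length trend removed, by construction. The median was -0.101 over whole counts and -0.14 to -0.11 with a library left out. That of transcripts under 0.1 CPM in eggs, -0.21, was 0 in DESeq2 and without a filter, -0.066 at 2 CPM and over, -0.089 over whole counts, and -0.26 to -0.20 with a library left out. That of transcripts at 20 CPM and over in eggs was 0.042 over whole counts and 0.06 to 0.10 with a library left out. In TPM the share differences were 0.604 points under 1000 bases (exact permutation p = 0.514), 0.127 at 1000 to under 2000 bases (0.80), and -0.519, -0.359 and 1.09 at 0.1 to under 2, 2 to under 20 and 20 CPM and over in eggs. With a library left out, where 3 against 4 cannot go below an exact permutation p of 0.0571, those in counts were 0.516 to 0.735, 0.733 to 0.921, -0.49 to -0.26, -0.80 to -0.497 and 0.78 to 1.38, that of 5000 bases and over -1.55 to -1.28, and the difference in transcripts detected -749 to -620.0.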
